A study of Bos taurus with 4 samples.

Results

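Smooth muscle contractile genes were followed in 4 bovine libraries, as the rows whose gene symbol is ACTG2, ACTA2, MYH11, MYLK, TAGLN, CNN1, LMOD1, SMTN, DES or SYNM. All 10 were found, each on 1 row, among 29792 rows of the deposited counts. The libraries, 1 for each group, came from small intestine tissue, muscle tissue, intestinal organoids at passage 5 (P5) and intestinal organoids at passage 10 (P10). All were labelled as from Hanwoo cows, a Korean beef breed, and the study's methods state that the cattle used were older than 24 months. Organoids are epithelial cultures that grow as small hollow bodies, here from crypts of the jejunum embedded in Matrigel, a basement membrane gel, and fed with IntestiCult medium. Which muscle was sampled, which layers of the gut wall were in the intestine sample and whether the samples came from the same animal are not given in the sources used here. Each library was made from 500 ng of total RNA with QuantSeq, which sequences the 3′ ends of polyadenylated RNA, so that a transcript gives about the same number of reads whatever its length. Levels are therefore given as CPM, the reads of a gene scaled by the read total of its library, without division by length.

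The wall of the small intestine is moved by smooth muscle, which lies in an inner circular and an outer longitudinal layer, in a thin sheet under the mucosa and around blood vessels. Its cells contract when calcium and calmodulin activate myosin light chain kinase, which phosphorylates the light chains of smooth muscle myosin so that the motor can pull on smooth muscle actin. Skeletal muscle uses other actin and myosin genes and is switched on through troponin on the thin filament, which smooth muscle lacks. The intestinal epithelium has no smooth muscle cells, but its brush border and cell junctions rest on cytoplasmic actin and non-muscle myosin.

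Read totals were between 12917720 in muscle and 17776273 in intestine. With 1 library a group no difference has a replicate check, no p-value is given, and the intervals (95%) cover counting error only, because PCR copies are not independent molecules. Differences are on the log2 scale of quantile-normalised counts with 1 added, and a gene was called higher or lower when it differed by at least 2-fold and had at least 10 reads in the higher library. A gene with 0 reads was set to 3 reads, the number that a count of 0 allows, which is 0.169 CPM in P10 organoids and 0.221 CPM in P5 organoids, and "at least" marks the lowest fold that any normalisation, pseudocount or filter gave with these 3 reads. Differences from muscle depend on the scaling, and unless another is named they are after quantile normalisation. In tissue and culture RNA, fewer cells of a type and less RNA per cell cannot be told apart.

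The muscle library carried the markers of skeletal muscle. The 17 skeletal markers summed to 47870 CPM in muscle and to 3.99 CPM in intestine, where 12 of the 17 had no reads, among them the myosin heavy chains MYH1, MYH2 and MYH7. In organoids the same markers summed to 7.06 CPM (P5) and 9.76 CPM (P10). Epithelial markers (EPCAM, CDH1, keratins, VIL1, CDX2 and LGALS4, 9 genes) summed to 3434 CPM in intestine, 13390 CPM in P5 organoids, 11130 CPM in P10 organoids and 54.2 CPM in muscle.

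ACTG2 encodes the enteric smooth muscle gamma actin, the actin isoform typical of visceral smooth muscle. It had 8605 reads in intestine (484 CPM, 95% Wilson interval 474 to 494), 25 in muscle (1.94 CPM, 1.31 to 2.86) and none in either organoid library. The log2 difference of intestine and muscle was 6.83 after quantile normalisation (6.19 to 7.59), and over 5 scalings the fold was between 109 (upper quartile) and 242 (library totals). Intestine was at least 933-fold higher than P5 organoids and at least 684-fold higher than P10 organoids. Of the 10 genes ACTG2 had the largest difference between intestine and muscle.

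ACTA2, the alpha actin of vascular smooth muscle and of other contractile mesenchymal cells, had 4100 reads in intestine, 261 in muscle, 64 at P5 and 11 at P10. These counts are 231, 20.2, 4.71 and 0.620 CPM. Its log2 difference was 2.55 between intestine and muscle (2.39 to 2.72), smaller than that of ACTG2, and the 2 counting intervals did not overlap. Against P5 and P10 organoids, intestine was higher by 5.67 (5.37 to 6.01) and 7.98 (7.35 to 8.58). Of the reads of both smooth muscle actins, ACTG2 took 67.7% in intestine (66.9% to 68.5%) and 8.74% in muscle (5.99% to 12.6%), so the more abundant of the pair was ACTG2 in intestine and ACTA2 in muscle. Actin genes are nearly identical in coding sequence, and the counts include reads with several alignments, so the split between actin genes is uncertain.

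MYH11 encodes the heavy chain of smooth muscle myosin, the motor that pulls on these actins. It had 9447 reads in intestine (531 CPM), 153 in muscle (11.8 CPM), 101 in P5 organoids (7.43 CPM) and 100 in P10 organoids (5.64 CPM). Intestine was higher than muscle by 4.37 on the log2 scale (4.16 to 4.58), and higher than the P5 and P10 organoids by 6.25 (5.98 to 6.52) and 6.64 (6.42 to 6.88). Unlike ACTG2, MYH11 kept a low level in both organoid libraries, with counts that differed by 1 read.

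MYLK encodes the kinase that activates smooth muscle myosin, and the same gene also gives a long non-muscle form that acts on the actin ring of epithelial junctions. It was the most abundant of the 10 genes in intestine, at 19810 reads (1114 CPM), and ranked 79 among all rows there. Muscle had 203 reads (15.7 CPM), P5 organoids 487 (35.8 CPM) and P10 organoids 87 (4.91 CPM). The log2 difference of intestine was 5.12 from muscle (4.95 to 5.31), 5.21 from P5 organoids (5.09 to 5.34) and 7.92 from P10 organoids (7.67 to 8.18). P5 organoids were higher than muscle for MYLK in CPM, but after quantile normalisation muscle lay slightly closer to intestine, so the order of these libraries depends on the scaling. Counts per gene do not separate the forms of MYLK.

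**Figure D1:**
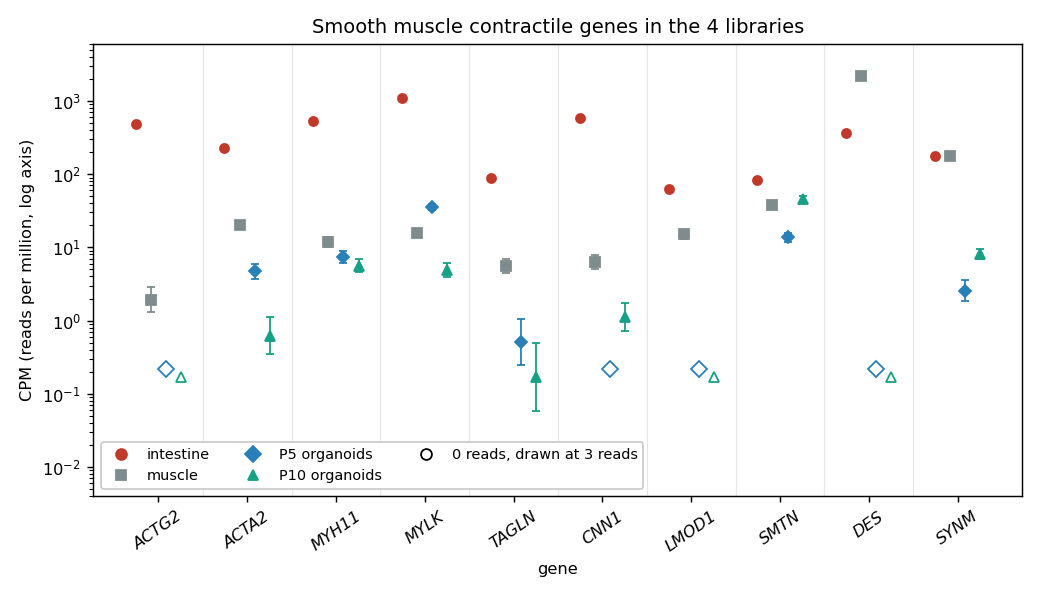
Level of each of the 10 genes in intestine, muscle, P5 organoids and P10 organoids, as CPM on a log axis, 1 point for each library, with 95% Wilson intervals for counting error. Open symbols mark genes with 0 reads, drawn at the value of 3 reads. Intestine is the highest library for every gene except DES, for which muscle is higher (2199 against 363 CPM), and SYNM lies at nearly the same CPM in both tissues.

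Among the genes that regulate the thin filament, CNN1 encodes calponin, an actin-binding brake on the myosin motor. CNN1 had 10251 reads in intestine (577 CPM), 82 in muscle (6.35 CPM), none at P5 and 20 at P10 (1.13 CPM, 0.730 to 1.74). Its difference of intestine and muscle was 5.35 (5.05 to 5.65), and intestine was at least 1114-fold higher than P5 organoids and 8.64 higher than P10 organoids on the log2 scale (8.13 to 9.15). CNN1 was the only 1 of the 4 genes at 0 in P5 organoids that had reads in P10 organoids.

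TAGLN, or SM22 alpha, is an actin cross-linker often used as an early marker of smooth muscle. It had 1597 reads in intestine (89.8 CPM), 72 in muscle (5.57 CPM), 7 in P5 organoids (0.515 CPM) and 3 in P10 organoids (0.169 CPM). Intestine was higher than muscle by 2.82 on the log2 scale (2.50 to 3.17), and higher than the P5 and P10 organoids by 7.30 (6.22 to 8.48) and 7.61 (6.79 to 8.88). TAGLN thus lay at or near the limit of detection in organoids, and its 2 organoid counts cannot be told apart at this depth.

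LMOD1 encodes leiomodin 1, which starts new actin filaments in smooth muscle. It had 1115 reads in intestine (62.7 CPM), 194 in muscle (15.0 CPM) and none in either organoid library. The log2 difference of intestine and muscle was 0.99 (0.80 to 1.21), so that it could not be placed on either side of 2-fold, and it was 2.06 when counts were scaled by library totals. Intestine was at least 119-fold higher than P5 organoids and at least 87.2-fold higher than P10 organoids.

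SMTN encodes smoothelin, an actin-associated protein of contractile smooth muscle, and was the gene with the smallest differences from organoids. It had 1493 reads in intestine (84.0 CPM), 487 in muscle (37.7 CPM), 187 in P5 organoids (13.8 CPM) and 823 in P10 organoids (46.4 CPM). Intestine was higher than P5 organoids by 2.78 on the log2 scale (2.57 to 2.99) and higher than P10 organoids by 1.17 (1.04 to 1.30). The latter was 0.86 with library totals and 0.91 with totals that leave out RN18S1, both under 2-fold. From muscle the difference was 0.30 (0.17 to 0.43) after quantile normalisation, 1.15 with library totals and -0.02 with upper-quartile normalisation, so its direction depends on the scaling.

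DES and SYNM encode desmin and synemin, intermediate filament proteins that both smooth and striated muscle use to tie their contractile units together. DES had 6449 reads in intestine (363 CPM), 28404 in muscle (2199 CPM) and none in either organoid library. It was the 1 gene of the 10 that was lower in intestine than in muscle by at least 2-fold (log2 difference -2.48, -2.53 to -2.45), and it ranked 37 among all rows in muscle. The difference was -3.61 with TMM normalisation and -3.77 with upper-quartile normalisation. Intestine was at least 715-fold higher than P5 organoids and at least 524-fold higher than P10 organoids for DES.

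SYNM had 3197 reads in intestine (179.8 CPM), 2275 in muscle (176 CPM), 35 in P5 organoids (2.57 CPM) and 145 in P10 organoids (8.18 CPM). The log2 difference of the tissues was -0.35 (-0.43 to -0.28) after quantile normalisation, -0.98 with TMM, -1.15 with upper-quartile normalisation, -0.30 with totals that leave out RN18S1 and 0.03 with library totals. SYNM was thus lower in intestine under 4 of 5 scalings, past 2-fold under 1 of them. Intestine was higher than the P5 and P10 organoids by 6.08 (5.66 to 6.53) and 4.71 (4.50 to 4.91). The 2 intermediate filament genes therefore differed in the organoids, where SYNM was counted and DES was not.

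Between intestine and muscle, 6 of the 10 genes were called higher in intestine (ACTG2, ACTA2, MYH11, MYLK, TAGLN and CNN1), 1 was called lower (DES) and 3 were within 2-fold (LMOD1, SMTN and SYNM). Of the 17559 rows tested in this comparison, 26.7% were called higher in intestine and 27% lower. The median over the 10 genes was 2.69 on the log2 scale, and over all rows tested it was -0.04. Under upper-quartile normalisation the split was 6 higher and 2 lower, against 30.5% and 25.9% of all rows. With TMM it was 7 and 1, against 33.6% and 22.9% of all rows. With totals that leave out RN18S1 it was also 7 and 1, against 48.6% and 13.8% of all rows. With library totals it was 8 and 1, LMOD1 and SMTN being added. Library totals called 56.8% of all rows higher and 11.4% lower, with a median of 1.25 for all rows and 3.75 for the 10 genes, and the differences of the 6 genes were then 3.51 to 7.92 in place of 2.55 to 6.83. The RN18S1 row, a ribosomal RNA, took 23.6% of the reads in muscle and between 0.264% and 4.81% in the other libraries. The summed level of the 10 genes was 3716 CPM in intestine and 2489 CPM in muscle, but without DES and SYNM it was 3174 CPM (3148 to 3200) against 114 CPM (109 to 120). DES alone took 88.3% of the muscle reads of the 10 genes and 9.76% of their intestine reads.

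Muscle also held low levels of genes of the intestinal epithelium, and these values stand beside those of the smooth muscle genes. The muscle level was 0.40% of the intestine level (CPM) for ACTG2, 1.10% for CNN1, 1.41% for MYLK, 2.23% for MYH11, 6.20% for TAGLN and 8.76% for ACTA2. It was 23.9% for LMOD1, 44.9% for SMTN, 97.9% for SYNM and 606% for DES. For the 9 epithelial markers it was between 0% and 9.58%, and 1.58% for their sum, with no muscle reads for KRT18, VIL1 and CDX2. These percentages depend on the scaling. For ACTA2, intestine was 11.4-fold higher than muscle with library totals and 5.86-fold higher after quantile normalisation. The part of such epithelial reads in the muscle levels of the smooth muscle genes was not tested.

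Between intestine and organoids, all 10 genes were called higher in intestine than in P5 organoids and all 10 higher than in P10 organoids. Of all rows tested, 20.4% of 17783 were called higher in intestine than in P5 organoids and 24.9% lower, and 21.6% of 17803 were called higher than in P10 organoids and 28% lower. The median over the 10 genes was 6.77 for P5 and 7.76 for P10 organoids, with 4 and 3 genes set against the 3-read floor, against medians of all rows of -0.11 and -0.17. The summed level of the 10 genes was 64.8 CPM in P5 organoids (60.6 to 69.2) and 67.1 CPM in P10 organoids (63.4 to 71.0), or 1.74% and 1.80% of that in intestine. MYLK and SMTN together gave most of this sum, and without them the level was 15.2 CPM in P5 organoids and 15.7 CPM in P10 organoids.

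**Figure D2:**
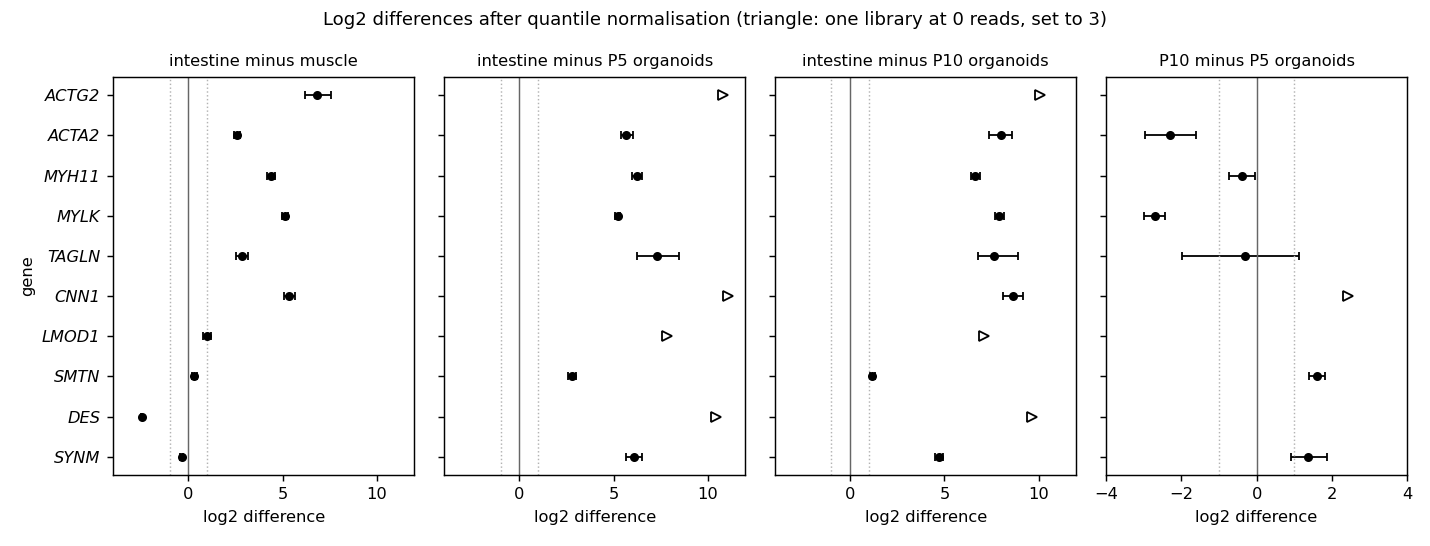
Log2 difference of each of the 10 genes after quantile normalisation in 4 comparisons, 1 panel for each, with bars for 95% counting intervals, triangles for genes at 0 reads in the other library, which was set to 3 reads, a line at 0 and dotted lines at 2-fold. The differences from organoids lie to the right of the upper dotted line for all 10 genes, while those from muscle run from -2.48 for DES to 6.83 for ACTG2. Genes at 0 reads in both organoid libraries have no point in the last panel.

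The summed level of the 10 genes had overlapping counting intervals in P5 and P10 organoids, but its makeup differed between them. Of 6 genes that could be tested, SMTN, SYNM and CNN1 were called higher in P10 organoids, ACTA2 and MYLK were called lower, and MYH11 was within 2-fold, with a median of 0.49 against 0.06 over all rows. ACTG2, LMOD1 and DES had no reads in either library and TAGLN had fewer than 10 in both. Of the 16131 rows tested, 16.1% were called higher in P10 organoids and 15.5% lower. SMTN was higher by 1.61 on the log2 scale (1.38 to 1.83) and SYNM by 1.37 (0.91 to 1.87), while MYLK was lower with a difference of -2.70 (-2.99 to -2.43) and ACTA2 with -2.31 (-2.97 to -1.60). CNN1 had 20 reads at P10 against none at P5, and with 3 reads at P5 the log2 difference was between 1.71 and 2.72 over the normalisations, pseudocounts and filters, before the counting error of the 20 reads. MYLK took 55.3% of the reads of the 10 genes in P5 organoids (52.0% to 58.5%) and 7.32% in P10 organoids (5.97% to 8.94%), and SMTN took 21.2% (18.7% to 24.0%) and 69.2% (66.5% to 71.8%). With 1 library for each passage, passage and variation between cultures cannot be told apart.

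Most of the 10 genes belong to families with separate smooth muscle, striated and non-muscle members, and the share of each member in the reads of its family sets the 4 libraries apart. In the actin family, the smooth muscle genes ACTG2 and ACTA2 took 15.7% of the reads in intestine, 0.104% in muscle, 0.0808% at P5 and 0.0124% at P10. The striated genes ACTA1 and ACTC1 took 98.5% in muscle and 0.0507% in intestine, and the cytoplasmic genes ACTB and ACTG1 took 84.2% in intestine, 99.91% in P5 and 99.99% in P10 organoids. ACTB had 2533 CPM in intestine, 4637 CPM in P5 organoids and 3827 CPM in P10 organoids, so the organoids were rich in actin reads of another isoform.

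The myosin heavy chains showed a like division. MYH11 took 70.4% of the reads of the 7 genes counted here in intestine (69.6% to 71.2%), 0.299% in muscle, 4.04% in P5 organoids (3.34% to 4.89%) and 2.71% in P10 organoids (2.23% to 3.28%). In muscle the striated chains MYH1, MYH2 and MYH7 took 98.4%, and in organoids the non-muscle chains MYH9, MYH10 and MYH14 took 95.9% at P5 and 97.3% at P10. MYH9 alone was at 117 CPM in intestine, 76.9 CPM in P5 organoids and 120.4 CPM in P10 organoids.

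The thin filament families are given next. TAGLN took 50.5% of transgelin reads in intestine and 0.102% and 0.0637% in the P5 and P10 organoids, where TAGLN2, the widely expressed relative, was counted at 505 and 265 CPM against 86.8 CPM in intestine. CNN1 took 91.9% of calponin reads in intestine and 56.2% in muscle, and CNN3, the form of non-muscle cells, took 86.4% and 86.7% in the P5 and P10 organoids. LMOD1 took 99.4% of leiomodin reads in intestine and 0.614% in muscle, where the striated leiomodins LMOD2 and LMOD3 had 18729 and 12689 reads. SMTN and MYLK stood apart from these, since each remained the main member of its family in the organoids. For MYLK no separate non-muscle gene was counted, because MYLK itself gives the non-muscle form. Its share at P10 rests on 87 of 95 kinase reads. SMTN took 86.6% of smoothelin reads at P5 and 94.2% at P10, and MYLK 90.9% of kinase reads at P5 and 91.6% at P10, whereas MYLK2, the skeletal muscle kinase, had 340 reads in muscle and none in the other 3 libraries.

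The intermediate filament relatives differed in their turn. VIM, the vimentin of mesenchymal cells, had 3242 reads in intestine, 4841 in muscle, 11 at P5 and none at P10, and NES, or nestin, had 44, 818, 28 and 367. Like SYNM, NES was therefore counted above 100 reads in P10 organoids, in which DES and VIM had none.

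**Figure D3:**
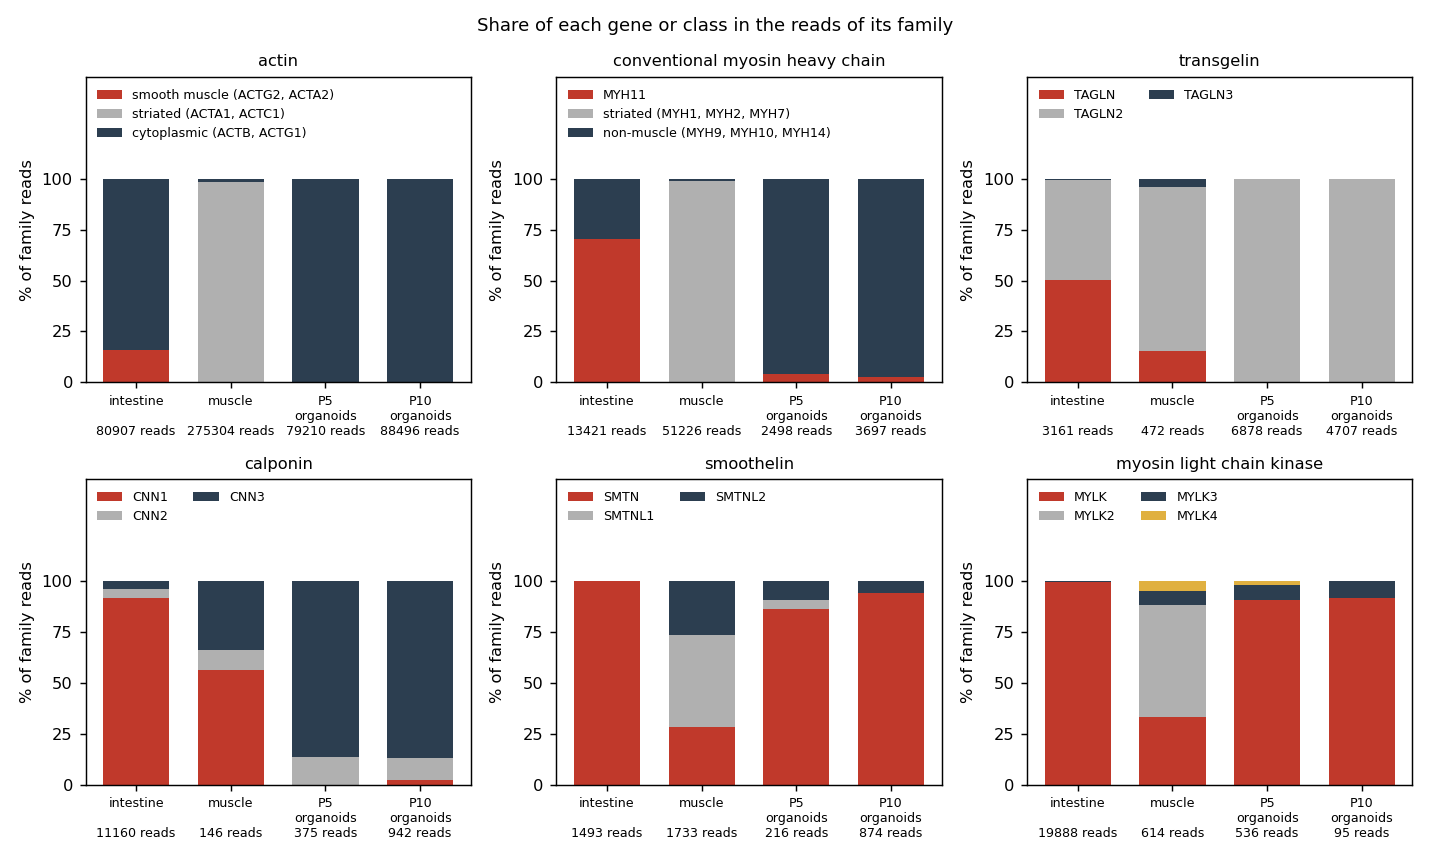
Share of each gene or class in the reads of 6 families, in percent, with 1 stacked bar for each library and the reads of the family under it. The red part, the smooth muscle gene or genes, is largest in intestine for actin, myosin heavy chain, transgelin and calponin and is nearly gone in organoids, whereas SMTN and MYLK still fill most of the bar there.

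A list of 17 other genes of the contractile apparatus and its anchors was examined in the same way. In P5 organoids 13 of the 17 were called lower than in intestine and in P10 organoids 11, and none was called higher in either. Of all rows, 20.4% were called lower in P5 organoids than in intestine and 24.9% higher, and 21.6% and 28% for P10 organoids. The median log2 differences of intestine and organoids over the 17 genes were 1.99 and 1.75. Those with a large difference included MYL9, the regulatory light chain of smooth muscle myosin, with 5963 reads in intestine, 116 in muscle, 27 at P5 and 103 at P10. CALD1, or caldesmon, had 11073, 2800, 50 and 52 reads in the same order, and TPM2, or beta tropomyosin, had 5806, 198049, 0 and 8. MYL6, the essential light chain shared by smooth muscle and non-muscle myosin, kept 13692 reads in P5 and 11940 in P10 organoids against 26528 in intestine.

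Against muscle, 7 of the 17 were called higher in intestine and 5 lower, against 26.7% and 27% of all rows. The split was 10 and 5 with library totals, against 56.8% and 11.4% of all rows. With upper-quartile normalisation it was 6 and 7, against 30.5% and 25.9% of all rows. The median over the 17 was 0.61 after quantile normalisation. FLNA, or filamin A, an actin cross-linker, was higher in intestine than in muscle by 3.45 (3.29 to 3.61) and MYL9 by 4.12 (3.88 to 4.37). The 5 lower were TPM1, TPM2, SYNPO2, PDLIM3 and PDLIM7, of which TPM2 (log2 difference -5.21) and PDLIM3 (-5.58) were farthest, and all 5 were also lower with library totals. Both tropomyosins and both PDLIM genes are also used in striated muscle.

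Between the passages, 6 of the 17 were called higher in P10 organoids (MYL9, TPM1, FLNA, CSRP1, PDLIM3 and PDLIM7), against 16.1% of all rows. PPP1R14A, an inhibitor of myosin phosphatase, was the 1 called lower, against 15.5% of all rows. FLNA had 178 reads in P5 and 1524 in P10 organoids, a log2 difference of 2.58 (2.37 to 2.80), and TPM1 had 1731 and 8280, a difference of 1.94 (1.87 to 2.02). With 8280 reads in P10 organoids and 7596 in intestine, TPM1 reached about the same level in both, and its small difference changed sign with the scaling (0.05 after quantile normalisation and -0.13 with library totals).

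Of 13 receptors, channels and signalling enzymes that set smooth muscle tone, 5 were called higher and 3 lower in intestine than in muscle after quantile normalisation (26.7% and 27% of all rows), but 8 and 0 with library totals (56.8% and 11.4% of all rows). Against organoids, 8 were called higher and 0 lower in intestine than in P5 organoids (20.4% and 24.9% of all rows). Than in P10 organoids, 7 were called higher and 1 lower (21.6% and 28% of all rows). With library totals, 6 were called higher and 2 lower than in P5 organoids (24.6% and 21.2% of all rows). KCNMB1, the beta subunit of the smooth muscle calcium-activated potassium channel, had 107 reads in intestine, 8 in muscle and none in organoids. The muscarinic receptors, through which acetylcholine drives gut contraction, differed from each other. CHRM2 had 166 reads in intestine, 2 in muscle, 15 at P5 and 19 at P10, whereas CHRM3 had 1281, 85, 1978 and 6953, so that CHRM3 was the 1 gene called lower in intestine than in P10 organoids (log2 difference -2.26, -2.37 to -2.18). PRKG1, a kinase of the cyclic GMP pathway that relaxes smooth muscle, was the most abundant of the 13 in intestine (552 CPM) and kept 301 CPM in P5 and 443 CPM in P10 organoids.

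Of 9 transcription factors, 7 could be tested, and 3 were called higher and 1 lower in intestine than in muscle, 3 and 1 than in P5 organoids, and 4 and 1 than in P10 organoids. Of all rows, 26.7% were called higher and 27% lower against muscle, 20.4% and 24.9% against P5, and 21.6% and 28% against P10 organoids. FOXF1, FOXF2 and NKX2-3, factors of the gut mesenchyme from which visceral smooth muscle arises, had 307, 148 and 261 reads in intestine, none in organoids, and 4, 0 and 0 in muscle. NKX3-2 had no reads in any library, and BARX1 had 3 in muscle. SRF, the factor that binds the promoters of many contractile genes, had 27 reads in intestine and was higher in muscle (110), P5 organoids (97) and P10 organoids (78), with log2 differences of intestine of -4.34, -2.82 and -2.19 after quantile normalisation and -2.44, -2.18 and -1.50 with library totals. MYOCD, or myocardin, the coactivator of SRF in smooth muscle, had 319 reads in intestine, 146 in muscle, 139 at P5 and 160 at P10. Its log2 difference of intestine from muscle was -0.56 after quantile normalisation and 0.66 with library totals, so the direction depends on the scaling. Its log2 difference of intestine was 0.83 from P5 organoids (0.55 to 1.13) and 1.12 from P10 organoids (0.85 to 1.38), the latter 0.99 with library totals, so neither could be placed on a side of 2-fold. The related coactivators MRTFA and MRTFB, listed under the older symbols MKL1 and MKL2, were within 2-fold of intestine in all 3 other libraries after quantile normalisation, but against muscle MRTFA was called higher in intestine with library totals (2.01), totals without RN18S1 (1.68) and TMM.

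Markers of the other cells of the gut wall are given beside the smooth muscle genes. Of 7 fibroblast markers all were called higher in intestine than in either organoid library, against 20.4% (P5) and 21.6% (P10) of all rows. They summed to 1015 CPM in intestine, 3.90 CPM in P5 organoids and 0.338 CPM in P10 organoids. COL3A1, DCN and LUM had no reads in organoids. The 5 endothelial markers summed to 45.2 CPM in intestine, 1.54 CPM in P5 organoids and 2.31 CPM in P10 organoids, and KIT and ANO1, markers of the interstitial cells of Cajal that pace gut contraction, to 40.1, 1.03 and 0.226 CPM. The 6 pericyte markers summed to 175.8 CPM in intestine, 100.3 CPM in muscle, 8.16 CPM at P5 and 20.6 CPM at P10. Among them RGS5 had 1648 reads in intestine, 13 in muscle and 1 in each organoid library. ABCC9 had 211 reads in intestine, 888 in muscle, 21 at P5 and 27 at P10. Against muscle, 1 of the 6 pericyte markers was called higher in intestine and 4 lower (26.7% and 27% of all rows), with a median of -1.61. With library totals 2 were called higher and 1 lower (56.8% and 11.4% of all rows). NOTCH3, with 121 reads in intestine, 74 in muscle, 66 at P5 and 322 at P10, was the 1 pericyte marker called lower in intestine than in P10 organoids. Muscle held fibroblast markers at 1288 CPM and endothelial markers at 36.7 CPM, and interstitial cell markers at 3.79 CPM. Whether cells other than smooth muscle added to the intestine levels of ACTA2 or TAGLN was not tested.

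**Figure D4:**
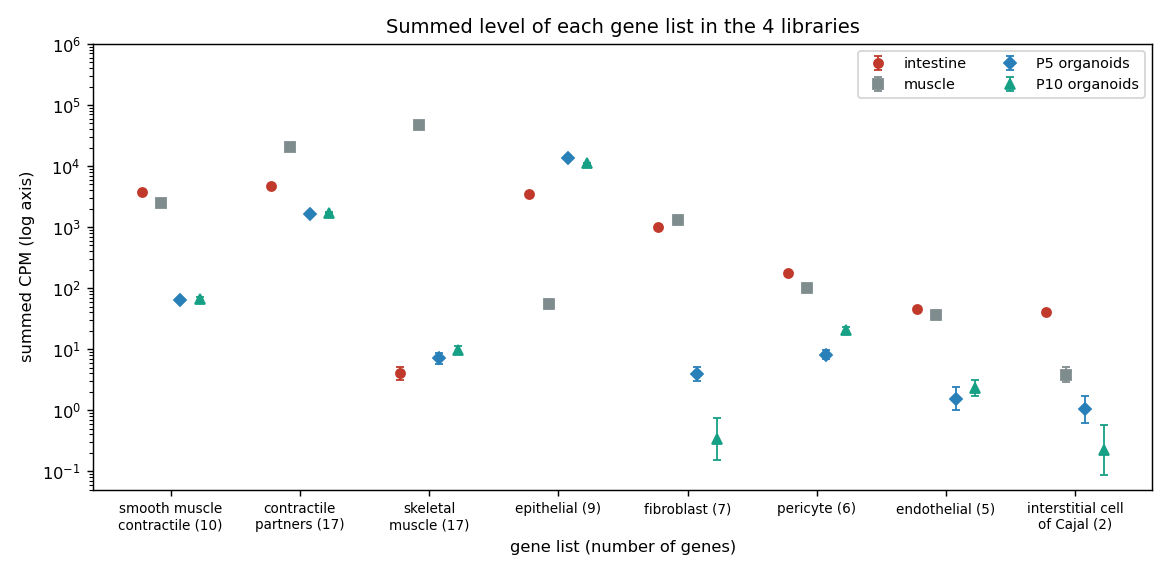
Summed CPM of 8 gene lists in the 4 libraries, on a log axis, with the number of genes of each list in brackets and 95% Wilson intervals for counting error. The organoids lie highest for the epithelial list and below both tissues for the smooth muscle, fibroblast, pericyte and endothelial lists, and muscle lies highest for the skeletal list.

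ACTG2 was taken as the reference for genes of the same pattern, as the Euclidean distance between its 3 log2 differences (intestine against muscle, P5 and P10 organoids) and those of 13234 other rows with at least 50 reads in intestine that were on none of the lists. The 5 nearest were LOC100847119 (distance 1.34), JCHAIN (1.47), SST (1.49), GIP (1.65) and LOC112442088 (1.75). JCHAIN encodes the joining chain of secreted antibodies and had 86692 reads in intestine, 110 in muscle, 18 at P5 and 82 at P10. SST and GIP encode hormones of enteroendocrine cells, and had 4141 and 3814 reads in intestine against at most 17 in any other library. The distance rests on 4 libraries. Because ACTG2 had no reads in organoids, its differences from organoids are set by its intestine level and the 3-read floor. SST, GIP and LOC112442088 had 3 reads or fewer in both organoid libraries, so the same holds for them.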

How the data were processed

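Read counts of 4 bovine QuantSeq 3′ mRNA-Seq libraries were used, 1 for each group. Per the study's methods, the authors used Bowtie2 for alignment and Bedtools for counting, with multiply aligned reads kept, and deposited whole-number counts per gene symbol without normalisation. Versions, genome build and annotation are not given in the sources used here, so no coordinates or sequences are printed. All 10 gene symbols were current in the RefSeq table of ARS-UCD2.0.

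Quantile normalisation, the method the authors name, was applied across all 4 libraries to 22200 rows (those with a read somewhere), tied counts sharing a mean rank, and 1 was added before taking log2. Intervals (95%) of differences combine exact Poisson limits of both counts, carried through the normalisation (MOVER method). Shares and CPM have Wilson intervals. A count of 3 or fewer was set to 3 reads for differences, and no difference is given where both libraries had 3 reads or fewer. The planned rule was to name the 10, all paralogues and the 5 nearest to ACTG2. From each other list it took the 6 genes with the highest CPM in any library, and genes opposed in sign to their list's median. Individual values of some genes under this rule are not given, among them MYLK3, MYLK4, TAGLN3, CNN2, SMTNL1, SMTNL2, SYNC, ROCK1, ITPR1 and RHOA. The same holds for the endothelial markers and for the most abundant skeletal markers. MYL9, FLNA, CSRP1, CHRM2, KCNMB1, FOXF2, NKX3-2, BARX1 and the skeletal myosins MYH1, MYH2 and MYH7 were named outside this rule, after their values were seen. The members and lists were chosen with earlier results of these data known. A planned search of promoters for an SRF motif was not run. There were 10 alternatives: CPM, TMM and upper-quartile normalisation (edgeR), totals without RN18S1, pseudocounts of 0.1 and 5, 2 filters on reads, rows summed by symbol and no floor. The calculations were tested on simulated libraries, drawn by Poisson counts from the intestine profile with some genes lowered in muscle. The simulation held no PCR copies and not the composition of the real muscle library. It therefore cannot test the choice of scaling or the width of the intervals in these data. Normalisation factors came from edgeR 4.0.16, with limma 3.58.1 for a check, in R 4.3.3. All else was computed in Python 3.11.15 (scipy 1.17.1, pandas 2.3.3, numpy 2.4.6), and plots were drawn with matplotlib 3.10.9.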

Additional observations from a re-analysis of the deposited data

Results flagged for a closer look

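In the signalling and transcription factor lists, 3 genes were higher than intestine in 1 organoid library and lower in the other. These differences were past counting error, taken with each read as independent. They had the same directions under library totals, TMM and upper-quartile normalisation. PDE5A, a phosphodiesterase that breaks down cyclic GMP, had a log2 difference of intestine and P5 organoids of -0.35 and of intestine and P10 organoids of 0.97. ROCK2, a protein kinase, had differences of -0.96 and 0.52 in the same order. MRTFA had differences of 0.60 and -0.31. Each passage has 1 library, so the difference between the passages was not tested, and this pattern was looked for after the data had been seen.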

How the results depend on the processing

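All 10 genes stayed called higher in intestine than in P5 organoids under CPM, TMM and upper-quartile normalisation, totals without RN18S1, both pseudocounts, the filter on reads in any library, summed rows and no floor. Against P10 organoids the same held, except for SMTN, which fell under 2-fold with library totals (0.86) and totals without RN18S1 (0.91). Requiring at least 10 reads in every library left 5 of the 10 genes, and so counts of 3 higher and 0 lower against muscle, 5 higher against P5 and 5 higher against P10 organoids, with medians of 5.82 and 6.76, and a P10 minus P5 median of -0.43 against 0.49 as reported. The median of intestine minus muscle was 3.75 with CPM and 3.42 without RN18S1, and 2 genes (DES and SYNM) were called lower with upper-quartile normalisation. The median of intestine minus P10 organoids was 8.42 with TMM and 8.43 with upper-quartile normalisation. SYNM changed direction against muscle with CPM (0.03), and SMTN with upper-quartile normalisation (-0.02). Values against a library with 0 reads depend on depth, the 3-read floor, the pseudocount and the filter, and ACTG2 against P5 organoids was 10.82 as reported and 9.87 with a pseudocount of 5. No paired analysis was possible because each group has 1 library, and for the same reason no library could be left out.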
